A study of Saccharomyces cerevisiae with 10 samples.

Results

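Ribosome biogenesis factor mRNAs are the messages for the nucleolar proteins that process ribosomal RNA and assemble the ribosomal subunits. The 60 mRNAs described here, of 6717 yeast genes in the deposited table, were taken by systematic name as processing and assembly factors of the NOP, UTP, RRP and DBP families and related genes. The rule names genes and uses no threshold on a measured value, but it was written with earlier results of these data known. All 60 were found in the table. All 10 libraries came from a *Saccharomyces cerevisiae* strain (yJC1257, mating type MATa) that carries *rpb1-1* and *caf1::HIS3* and, beside them, *ura3-52*, *his3-200* and an auxotrophic allele of *LEU2*. *rpb1-1* is a temperature-sensitive allele of the largest subunit of RNA polymerase II, and *CAF1*, listed under its standard name *POP2*, encodes a deadenylase of the Ccr4-Not complex. Cells grew to mid-log phase at 24 °C, a first aliquot was taken at 0 min, and further aliquots followed at 3, 6, 8 and 10 min, at 15, 20 and 30 min and at 45 and 60 min after a shift to 37 °C, with 1 library for each time. Every library therefore carried both alleles, and all but the first also carried the heat shift. No wild-type or *rpb1-1* library with *CAF1* intact was analysed here, and the heat shift and the arrest of transcription cannot be told apart.

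Ribosomal RNA is transcribed in the nucleolus as a long precursor. The UtpA and UtpB complexes and the box C/D ribonucleoprotein U3 assemble on the nascent precursor to begin the 40S subunit, and other box C/D particles, which hold small nucleolar RNAs, guide its methylation. A further set of 40S factors, a set of 60S factors and a family of RNA helicases then trim, remodel and release the subunits. In yeast the genes of these factors are known to be transcribed as a coordinated regulon that responds to growth and stress, and many of their promoters carry a pair of motifs, PAC and RRPE, whose known binding factors include Tod6 and Dot6 for PAC and Stb3 for RRPE. The group is also known for messages of short lifetime.

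The promoters carried these motifs far more often than yeast promoters as a whole. A window from 250 bases before to 50 bases into the coding start was read for each gene from the RefSeq R64 genome and searched on both strands for the word GATGAG (PAC) and the word AAAAATTT (RRPE), overlapping matches included. PAC was present in 56 of 60 windows (93.3%) against 20.4% of 6001 protein-coding genes, and RRPE in 50 of 60 (83.3%) against 14.1%. Both words were present in 47 of 60 (78.3%) against 5.63%. Among the 83 other ribosome biogenesis genes on the comparison list, 78.3% held both words, and among 137 ribosomal protein genes 0.730% did. With the longer words GCGATGAG and GAAAAATTT, at least 1 was found in 49 of 60 windows (81.7%) against 8.70% of all genes. Both longer words were found in 20 of 60 (33.3%) against 1.32%. A match is a string of letters, and binding was not measured.

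PAC had 88 matches, 85 of them before the coding start. These 85 stood at a median position of -120 (quartiles -142 and -101, range -229 to -1). RRPE had 73 matches, all before the coding start, at a median of -144 (quartiles -165 and -118, range -245 to -34). Positions in other genes were not compared. In *UTP4* the only PAC match lay past the coding start. PAC occurred without RRPE in 9 genes (*RRP9*, *UTP13*, *UTP7*, *NOP9*, *NOP6*, *RRP1*, *RRP15*, *MAK5* and *DBP10*) and RRPE without PAC in 3 (*UTP15*, *UTP30* and *NOP53*). Only *UTP22* held neither word in its window.

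**Figure D1:**
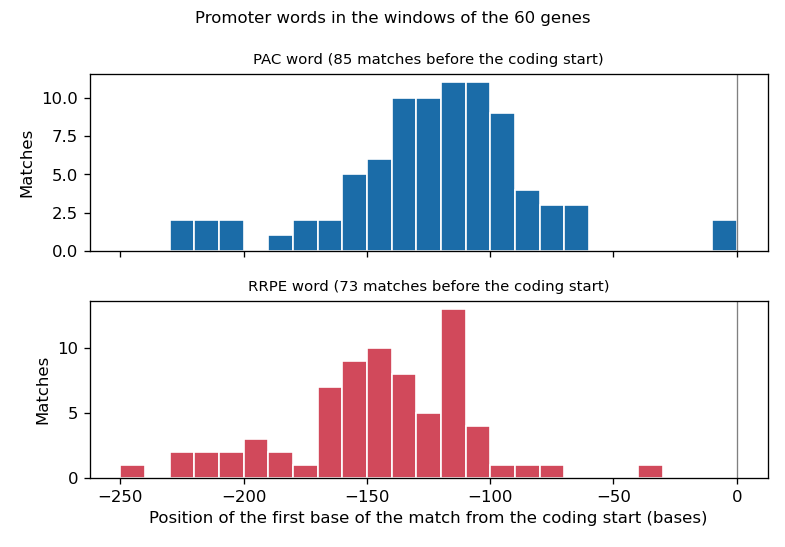
Histograms of the position of the first base of each PAC match (top) and RRPE match (bottom) before the coding start in the 60 promoter windows, in bins of 10 bases, with counts of matches on the vertical axis. PAC matches centre on a median of -120 and RRPE matches on a median of -144.

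Stretches of 9 promoters are shown 5′ to 3′ on the coding strand, with the word matches in capitals (CTCATC and AAATTTTT are the same words on the other strand). They were chosen after the values were seen, so that mRNAs of short and of long half-life stand together with the most abundant box C/D factors. They are not the extremes in order. *MAK16* and *BRX1* ranked 7 and 11 from the shortest, and *UTP15*, *UTP23*, *RRP15* and *ERB1*, nearer the ends, are not shown. *UTP9* (chrVIII:491801-491837 on the plus strand), *MAK16* (chrI:101254-101290 on the minus strand) and *BRX1* (chrXV:186854-186893 on the minus strand) belonged to short-lived mRNAs. *NOP1* (chrIV:427130-427175 on the plus strand), *NOP56* (chrXII:545946-545985 on the plus strand) and *NOP58* (chrXV:898467-898504 on the minus strand) encode box C/D proteins. *NAN1* (chrXVI:310084-310120 on the plus strand) and *RRP5* (chrXIII:731264-731300 on the minus strand) had mRNAs of long half-life, and *UTP30* (chrXI:556373-556420 on the plus strand) had the shortest half-life and no PAC word.
UTP9: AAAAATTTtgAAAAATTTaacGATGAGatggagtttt
MAK16: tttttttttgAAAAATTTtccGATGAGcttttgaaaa
BRX1: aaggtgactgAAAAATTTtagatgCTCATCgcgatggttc
NOP1: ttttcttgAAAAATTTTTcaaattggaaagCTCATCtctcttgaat
NOP56: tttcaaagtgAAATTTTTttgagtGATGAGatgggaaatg
NOP58: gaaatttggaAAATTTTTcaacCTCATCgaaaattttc
NAN1: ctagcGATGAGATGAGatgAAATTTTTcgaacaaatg
RRP5: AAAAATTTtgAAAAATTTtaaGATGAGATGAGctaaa
UTP30: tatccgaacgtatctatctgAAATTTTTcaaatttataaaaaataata
*UTP9* and *RRP5*, far apart in half-life (4.06 and 57.0 min), both held a pair of RRPE words followed by PAC. The mRNAs of the 47 genes with both words had a median half-life of 9.14 min (4.06 to 57.0 min), those of the 9 genes with PAC alone 11.4 min (4.51 to 25.3 min) and those of the 3 genes with RRPE alone 4.36 min (2.50 to 7.96 min). The ranges of the 3 groups overlapped.

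The libraries held between 2283418 and 4989981 fragments, estimated from the steps between the lowest values. With these depths 90.8% to 94.8% of the low values in a library fell within 0.1 of a whole fragment. Each depth was chosen to bring those values near whole fragments, so the share is not a separate check. The members had between 55.0 and 3391 estimated fragments at 0 min (median 335). *POP2* was at 0.887 FPKM at 0 min and was listed at 0 at 30 and 60 min, while its partner *CCR4* was at 56.9 FPKM at 0 min. Levels are FPKM divided by the summed FPKM of the added ERCC spike-in RNAs relative to 0 min, so that a level is relative to the spike. The spike was added after RNA extraction. The study's methods do not state whether it went into a fixed amount of RNA or into all RNA of an aliquot. With a fixed amount, a level is relative to total RNA. With all RNA of an aliquot, fewer cells and less RNA per cell cannot be told apart. In either case decay and any synthesis that went on after the shift cannot be told apart. The libraries at 10 and 45 min stood high: 83.6% of 4658 described genes (those with a named product and at least 10 FPKM at 0 min) were above their 8 min level at 10 min, as were 41 of the 60 members, and 74.9% were above their 30 min level at 45 min, as were 43 members. With 1 library per time point, no single level has an error from replicates.

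The levels of the ribosome biogenesis factor mRNAs fell steeply for 15 min and then more slowly. Up to 10 min the median share of the starting level was 79.8%, 59.3%, 47.5% and 51.2% (3, 6, 8 and 10 min), with 29.1% left at 15 min. Later medians were 23.9% (20 min), 13.3% (30 min), 15.4% (45 min) and 14.0% (60 min). Over the 4658 described genes the medians at the same times were 82.3%, 66.9%, 56.6%, 65.6% and 48.9%, then 49.0%, 39.0%, 44.8% and 35.4%. The members thus lay close to all genes at 3 min and well below them at 60 min. At 10 min 29 of 60 members were at or below 50% of their starting level (25.9% of all described genes), and at 60 min 50 of 60 were at or below 25% (30.8% of all described genes). At 60 min the members ranged from 4.47% (*UTP11*) to 55.6% (*RRP5*).

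**Figure D2:**
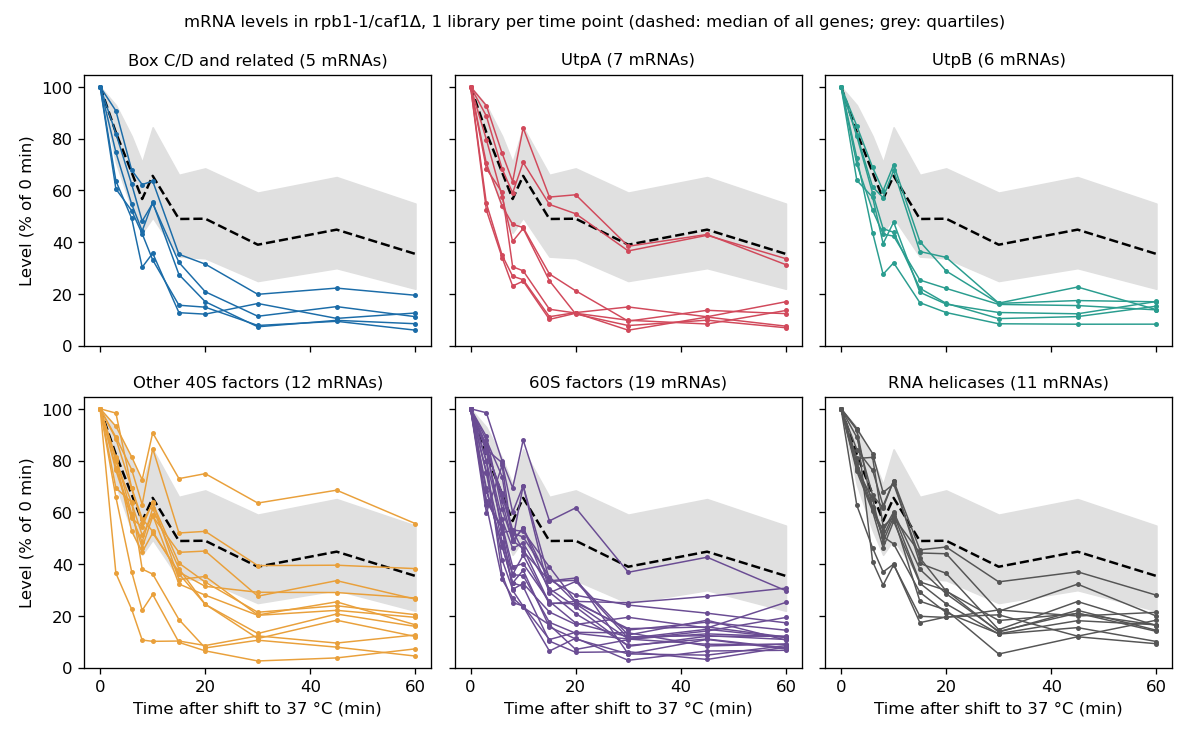
Level of each mRNA as a percentage of its 0 min level (vertical axis) against minutes after the shift to 37 °C (horizontal axis), in 6 panels by role, 1 line per mRNA and 1 library per time point. The dashed line and grey band give the median and quartiles of 4658 described genes, and by 60 min most member lines lie below the band, with RRP5 the highest at 55.6%.

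Of the 5 factors of the box C/D and related group, *NOP56* (YLR197W, chrXII:546097-547611, plus strand), a core scaffold protein of these particles, had the highest level. Positions are those of the coding sequence in R64, not in the sacCer2 build of the alignment. No member overlaps another gene annotated in R64. Only 6025 of the 6717 yeast rows matched an R64 gene, so overlaps with features outside R64 were not checked. The spike-in-scaled FPKM of *NOP56*, in the order of the 10 libraries here and below, was 209, 171, 130.0, 100.3 and 115 up to 10 min and 67.0, 43.4, 23.7, 31.4 and 23.3 from 15 min on. *NOP58* (YOR310C, chrXV:896825-898360, minus strand), its paralogous partner in the particle, was at 162, 146, 109.6, 100.5 and 103 up to 10 min and 57.0, 50.9, 32.0, 35.9 and 31.4 from 15 min on. Both fell without a break to 8 min, and *NOP58* kept the larger share at 60 min (19.4% against 11.2%). Their half-lives were 9.53 ± 0.767 min and 13.1 ± 1.37 min (estimate ± SE of the fit, here and below). *NOP1*, the fibrillarin methyltransferase of the same particles, fell from 159 to 13.4 with a half-life of 8.20 ± 0.677 min. *NSR1*, a nucleolin-like protein, and *RRP9*, a protein of the U3 particle, were shorter-lived at 6.15 and 5.66 min.

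The 7 mRNAs of UtpA, a complex that binds the 5′ end of the nascent precursor, split into 5 with half-lives of 8.00 min or less and 2 of over 20 min. *UTP10* (YJL109C, chrX:212000-217309, minus strand), the largest subunit, was at 75.1, 66.6, 51.3, 44.3 and 53.1 up to 10 min and 41.0, 38.2, 27.5, 32.0 and 25.2 from 15 min on. *NAN1* (YPL126W, chrXVI:310210-312900, plus strand) was at 66.6, 61.7, 49.5, 42.2 and 56.0 up to 10 min and 38.2, 38.8, 25.6, 28.6 and 20.8 from 15 min on. Both were still above 30% of the start at 60 min (33.6% and 31.3%), close to the median of all genes. *UTP9* (YHR196W, chrVIII:491931-493658, plus strand) was at 62.8, 32.9, 21.4, 14.5 and 15.7 up to 10 min and 6.37, 7.85, 6.15, 5.25 and 8.53 from 15 min on. *UTP15* (YMR093W, chrXIII:454015-455556, plus strand) was at 57.8, 31.8, 20.2, 15.5 and 14.7 up to 10 min and 6.46, 7.38, 8.63, 6.44 and 9.80 from 15 min on. At 15 min they had 10.1% and 11.2% of the start left, and both were higher at 60 min than at 15 min. The half-lives were 22.4 ± 3.57 min for *UTP10* and 26.1 ± 3.497 min for *NAN1*, against 4.06 ± 0.473 min for *UTP9* and 4.36 ± 0.594 min for *UTP15*. *UTP5*, *UTP4* and *UTP8* lay between them at 5.84, 7.52 and 8.00 min. The mRNAs of 1 complex thus spanned half-lives from 4.06 to 26.1 min.

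The 6 mRNAs of UtpB, which bridges the precursor and the U3 particle, were closer together. *UTP21* (YLR409C, chrXII:934414-937233, minus strand), a WD-repeat protein, was at 69.5, 56.7, 42.6, 39.8 and 47.1 up to 10 min and 25.3, 23.7, 11.4, 15.7 and 9.67 from 15 min on. *UTP13* (YLR222C, chrXII:579318-581771, minus strand), another, was at 62.5, 53.1, 43.0, 37.5 and 43.7 up to 10 min and 25.1, 18.0, 10.2, 10.9 and 10.6 from 15 min on. All 6 UtpB mRNAs were at or below 25% at 60 min. *UTP21* and *UTP13* had the longest half-lives of the complex, 12.4 ± 1.35 min and 12.9 ± 1.202 min, which differ by less than their SEs. *UTP6*, *UTP18*, *DIP2* and *PWP2* had half-lives of 5.50, 7.26, 7.68 and 7.87 min.

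The 12 other 40S factors held both extremes. *RRP5* (YMR229C, chrXIII:725934-731123, minus strand), a large RNA-binding protein needed for both subunits, was at 123, 115, 100.3, 89.4 and 112 up to 10 min and 89.9, 92.3, 78.3, 84.4 and 68.5 from 15 min on. It kept the largest share of all members in every library from 8 min on, with 55.6% left at 60 min. *UTP20* (YBL004W, chrII:227636-235117, plus strand), a scaffold protein with the longest coding sequence among the members, was at 116, 103, 80.6, 65.2 and 73.9 up to 10 min and 47.0, 38.5, 24.9, 27.8 and 23.8 from 15 min on. *UTP30* (YKR060W, chrXI:556518-557342, plus strand), a protein with a ribosomal L1-like fold, was at 21.05, 7.67, 4.74, 2.25 and 2.14 up to 10 min and 2.16, 1.80, 2.58, 2.0004 and 2.66 from 15 min on. It was down to 36.4% at 3 min and 10.7% at 8 min and then stayed between 8.55% and 12.6%. These late values rest on few fragments, 55.0 at 0 min and 4.02 in its lowest library, with counting errors of 13.5% and 49.9%. The half-lives were 57.0 ± 9.34 min for *RRP5*, 13.5 ± 1.46 min for *UTP20* and 2.50 ± 0.387 min for *UTP30*. The remaining 9 were *UTP23* (4.49 min), *UTP11* (6.67 min), *NOP6* (10.3 min), *NOP14* (11.1 min), *UTP22* (11.2 min), *NOP9* (11.4 min), *UTP14* (11.97 min), *RRP12* (14.6 min) and *UTP7* (25.3 min). *UTP14* encodes an activator of a 40S helicase and *RRP12* an export factor. Of these 9 only *UTP7* had a longer half-life than *RRP12*.

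Of the 19 factors of the 60S subunit, *BRX1* (YOL077C, chrXV:185848-186723, minus strand) and *NOP15* (YNL110C, chrXIV:417826-418488, minus strand) had the highest levels at 0 min. *BRX1*, an early 60S assembly factor, was at 105, 73.2, 49.3, 34.5 and 39.7 up to 10 min and 16.6, 11.7, 5.59, 5.10 and 8.97 from 15 min on. *NOP15*, which binds the spacer between the large subunit RNAs, was at 105, 71.8, 49.8, 34.5 and 33.0 up to 10 min and 10.8, 6.22, 6.47, 3.32 and 8.36 from 15 min on. Both had lost over 90% by 45 min, and both were higher at 60 min than at 45 min (8.97 and 8.36), where *NOP15* had 10.0 and 26.0 fragments. Their half-lives were 5.83 ± 0.369 min and 5.35 ± 0.285 min. *ERB1* (YMR049C, chrXIII:368094-370517, minus strand) was at 55.5, 54.6, 44.3, 38.5 and 48.8 up to 10 min and 31.4, 34.2, 20.4, 23.7 and 16.5 from 15 min on. It had the longest half-life of the group, 27.4 ± 3.34 min, while its partners in a 60S subcomplex, *NOP7* and *YTM1*, were at 10.9 ± 0.874 min and 8.79 ± 0.69 min. *NOP53* (YPL146C, chrXVI:276162-277529, minus strand), which helps to recruit the exosome to the late 60S precursor, was at 57.6, 43.4, 28.0, 20.7 and 25.03 up to 10 min and 14.2, 14.7, 14.4, 15.8 and 17.7 from 15 min on. *RRP15* (YPR143W, chrXVI:818323-819075, plus strand) was at 53.3, 33.4, 18.2, 14.4 and 12.4 up to 10 min and 8.81, 3.74, 5.76, 7.55 and 10.3 from 15 min on. Both reached their lowest value by 20 min and were above it in the 3 later libraries. Their half-lives were 7.96 ± 1.66 min and 4.51 ± 0.602 min. The other 12 60S factors were *RRP8* (4.96 min), *MAK16* (5.09 min), *NOP16* (6.03 min), *EBP2* (6.22 min), *NOP12* (7.45 min), *NOP4* (9.01 min), *RRB1* (9.34 min), *RRP1* (9.35 min), *NOP2* (10.3 min), *NOP8* (11.2 min), *RRP14* (12.2 min) and *NOP13* (12.4 min). *NOP2* and *RRP8* encode methyltransferases of the large subunit RNA, and *RRB1* a chaperone of the ribosomal protein Rpl3.

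The 11 RNA helicases, enzymes that remodel the precursor with ATP, had half-lives from 6.41 to 19.2 min, a narrower range than that of the 60S factors (4.51 to 27.4 min). *DBP3* (YGL078C, chrVII:360288-361859, minus strand) was at 72.1, 66.6, 59.7, 48.8 and 51.2 up to 10 min and 30.6, 21.3, 13.1, 15.1 and 11.8 from 15 min on. *MAK5* (YBR142W, chrII:528317-530638, plus strand) was at 62.4, 57.3, 38.3, 33.0 and 37.5 up to 10 min and 23.7, 17.8, 8.73, 13.1 and 8.74 from 15 min on. Both fell in most steps and were higher at 10 than at 8 min and at 45 than at 30 min, as was the median of all genes. Their half-lives were 14.8 ± 1.45 min and 11.5 ± 1.204 min. The others were *DBP7* (6.41 min), *DBP8* (6.99 min), *HAS1* (9.14 min), *SPB4* (9.19 min), *ROK1* (9.56 min), *DBP9* (10.6 min), *DBP2* (14.5 min), *DRS1* (15.3 min) and *DBP10* (19.2 min). *DBP2* was the only member whose coding sequence is split by an intron.

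To ask which of these falls exceeded the scatter around a line over time, slopes were fitted with limma to log2(level + 1) for 6045 genes with a mean of at least 1 FPKM, a filter that all 60 members passed. Over 0 to 60 min 57 of 60 members fell at a Benjamini-Hochberg adjusted p under 0.05, where 52.8% of all genes did. None rose at that threshold or at an unadjusted p under 0.05 in limma, where 1.6% of all genes rose. The members' median slope was -0.0437 log2 units per min against -0.0170 over all genes. The 3 that did not pass were *UTP30* (-0.0239 ± 0.0128 log2 units per min, limma adjusted p = 0.129), *RRP15* (-0.0306 ± 0.0136 log2 units per min, adjusted p = 0.0749) and *NOP53* (-0.0214 ± 0.00861 log2 units per min, adjusted p = 0.0536). All 3 had a steep early fall and a flat or rising late course, which a single line describes poorly.

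With a break in the line at 15 min, 59 of 60 members fell in the first phase (57.6% of all genes), with a median slope of -0.132 log2 units per min against -0.0577. *RRP5* was the exception (-0.0251 ± 0.0122 log2 units per min, limma adjusted p = 0.096). The steepest early slope was that of *NOP15* (-0.245 ± 0.0293 log2 units per min, adjusted p = 0.000227), followed by *MAK16* (-0.239 ± 0.0266 log2 units per min, adjusted p = 0.00018). At 15 min *MAK16* had 6.02 estimated fragments and *NOP15* 15.1, so their early slopes rest on few fragments there. The slope became less steep after 15 min in 54 of 60 members (37.6% of all genes). The 6 without that call were *NAN1*, *RRP5*, *RRP1*, *ERB1*, *DBP2* and *DRS1*. They included 3 of the 5 mRNAs with half-lives over 20 min. A change of slope was called in 31 of 60 members with the break at 10 min (35.6% of all genes), in 32 without the 0 min library (12.1%) and in 33 without the 60 min library (29.0%). The late slope itself, looked at after the values were seen, had a median of -0.0206 log2 units per min against -0.00566 over all genes. It was below 0 at an adjusted p under 0.05 in 4 of 60 members (3.21% of all genes) and at an unadjusted p under 0.05 in 40 of 60 (24.8% of all genes). The adjusted count moved between 0 and 43 over the alternatives, the latter beside 27.3% of all genes, so that no member's late fall is called. At 60 min 51 of 60 members were below their 15 min level, as were 74.7% of the described genes. The 9 that were not were *UTP9*, *UTP15*, *UTP30*, *NOP16*, *NOP53*, *RRP15*, *MAK16*, *DBP7* and *DBP8*. For *MAK16* the levels were close, 2.83 FPKM at 15 min and 2.95 FPKM at 60 min.

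**Figure D3:**
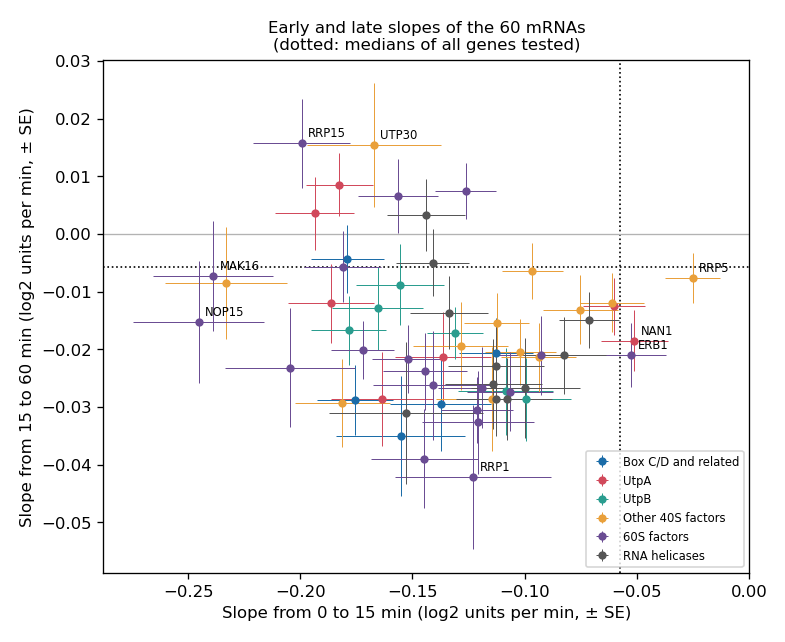
Slope from 0 to 15 min (horizontal axis) against slope from 15 to 60 min (vertical axis), both in log2 units per min with the limma SE, for the 60 mRNAs coloured by role. Dotted lines give the medians over all genes tested (-0.0577 and -0.00566), and all but a few members lie left of the vertical one, with NOP15 farthest at -0.245 and RRP5 nearest 0 at -0.0251.

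Half-lives were read from an exponential decay fixed at the 0 min level. All 60 members passed the filters on the average residual (at most 0.14) and on the half-life (at most 60 min), where 53.2% of 5269 genes passed (all described genes above 0 FPKM at 0 min, without the limit of 10 FPKM). Their median half-life was 9.26 min (quartiles 6.36 and 12.2 min) against 15.8 min (quartiles 9.22 and 27.3 min) for the 2801 genes that passed, and 54 of 60 were below that median. In the members 34 half-lives were under 10 min, 21 were from 10 to 20 min and 5 were 20 min or more. By role the medians were 8.20 min for the box C/D and related group, 7.52 min for UtpA, 7.78 min for UtpB, 11.3 min for the other 40S factors, 8.79 min for the 60S factors and 10.6 min for the helicases. The spread within a role was larger than the spread between these medians. From *UTP30* to *RRP5* the range was 2.50 to 57.0 min. Without the 30 min library *RRP5* was at 60.1 min, over the 60 min limit, and failed the filter.

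**Figure D4:**
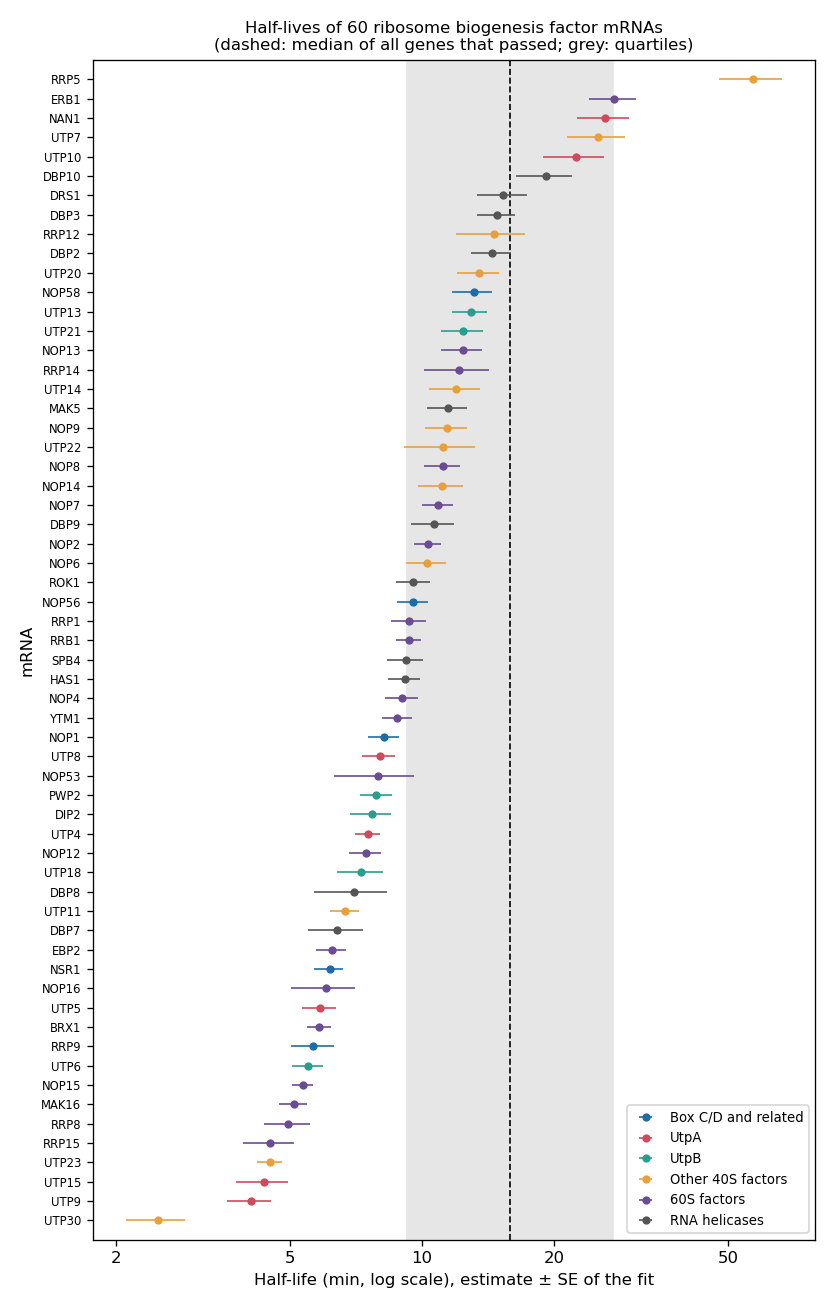
Half-life of each of the 60 mRNAs in min on a log scale (horizontal axis), with the SE of the fit as bars and colours by role, ordered from the shortest (UTP30, 2.50 min) to the longest (RRP5, 57.0 min). The dashed line and grey band give the median (15.8 min) and quartiles of the 2801 genes that passed, and 54 points lie left of the line.

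The order against all genes turned with the decay model. With a decay to a plateau the members' median half-life was 7.10 min and that of all genes that passed was 4.59 min. The fitted plateau had a median of 11.9% of the start for the members and 34.6% for all genes. Over the 2791 genes that passed under both models the median was 6.43 min, still below the members' 7.10 min. The plateau is a free parameter more, and the median of the average residual was lower with it in the members (0.0356 against 0.0617) and in all genes (0.0553 against 0.116). The late level did not depend on a decay model: at 60 min the members' median level of 14.0% stood below that of all genes, 35.4%, and it also did with FPKM as deposited (19.9% against 50.4%) and with the same total in each library (26.5% against 67.3%).

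Among the members longer coding sequences went with longer half-lives. The 11 mRNAs of at most 1000 coding bases had a median half-life of 5.83 min (2.50 to 10.3 min), the 38 of intermediate length 9.26 min, and the 11 of 2500 bases or more 13.5 min (7.68 to 57.0 min). Spearman's rho was 0.589 over the 60 mRNAs and 0.569 without *RRP5*, while it was -0.0183 over the 2801 genes that passed. Over those genes the medians of the same 3 length classes were 16.7, 14.3 and 21.7 min, so that the longest class had the longest half-lives there too. With the plateau model it was 0.378 among the members. All points share the same 10 libraries, and at the same FPKM a longer mRNA gives more fragments and less counting error. For the level at 60 min the rho with length was 0.533. *UTP7*, of 1665 coding bases, was longer-lived (25.3 min) than *UTP20*, of 7482 (13.5 min).

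**Figure D5:**
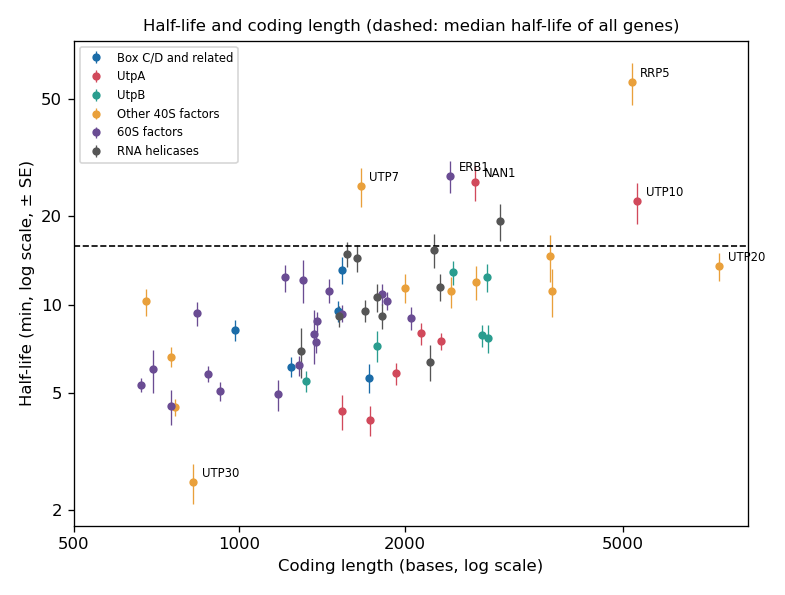
Half-life in min (vertical axis, log scale, with the SE of the fit) against coding length in bases (horizontal axis, log scale) for the 60 mRNAs coloured by role. The dashed line is the median half-life of all genes that passed, 15.8 min, and the 11 mRNAs of at most 1000 bases all lie at 10.3 min or below.

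Codon optimality, the share of codons that are decoded efficiently, was the property the study followed in this strain. It was computed here from the 9 OPT and 9 NON-OPT codons that differ between the study's reporter sequences, as the OPT share of all codons in those classes. These codons cover 9 amino acids, and all other codons were left out. The study instead averaged optimality over each transcript by the definitions of Pechmann and Frydman. The shares here are therefore not the study's score. The members' median share was 56.6% against 52.7% over the same 5269 genes, and 19 of 60 were below that value. *NOP1* had the highest share, 92.4%, and *UTP30* the lowest, 44.6%. The box C/D and related mRNAs had a median of 78.3% and the ribosomal protein mRNAs 95.1%. Across the members rho between OPT share and half-life was 0.240, and over the 2801 genes 0.278. With the level at 60 min the members' rho was -0.0512. The first 25 codons of 3 members, chosen after their values were seen as the highest share, the lowest share and the longest half-life, show the difference, with OPT codons in capitals: *NOP1* (chrIV:427364-427438 on the plus strand) had 12 OPT codons and 1 NON-OPT codon, *UTP30* (chrXI:556518-556592 on the plus strand) had 3 and 7, and *RRP5* (chrXIII:731049-731123 on the minus strand) had 7 and 3.
NOP1: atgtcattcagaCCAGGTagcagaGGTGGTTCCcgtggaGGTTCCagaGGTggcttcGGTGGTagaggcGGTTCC
UTP30: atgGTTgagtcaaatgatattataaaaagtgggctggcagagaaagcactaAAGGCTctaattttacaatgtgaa
RRP5: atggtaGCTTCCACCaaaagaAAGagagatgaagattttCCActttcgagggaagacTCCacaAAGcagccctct
*RRP5*, with the longest half-life, was at 64.7% over its whole coding sequence, and *NOP1* had a half-life of 8.20 min. The most optimal and the slowest mRNA were thus not the same.

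Beside the other messages of the same process, the members had similar values. The 83 other ribosome biogenesis mRNAs had a median half-life of 8.13 min (80 of 83 passed) and median levels of 47.1% at 10 min and 12.4% at 60 min. A fall in the first phase was called in 79 of 83 (57.6% of all genes). The ribosomal protein mRNAs took another course to a similar end. Of the 137 listed, 135 had values (*RPL41A* and *RPL41B* were listed at 0), and reads may be split between the near-identical copies of many of these genes. Their median level was still 84.1% of the start after 10 min and 61.7% after 15 min, but 20.4% after 30 min, 36.6% after 45 min and 15.9% after 60 min, with a median half-life of 22.2 min. At 45 min 96.3% of them were above their 30 min level. In the first phase limma called a fall in 44 of 135 ribosomal protein mRNAs, against 59 of 60 members and 57.6% of all genes. Their median early slope was -0.0612 log2 units per min against -0.0577 over all genes, so mRNAs without a call may also have fallen. The change to a less steep slope was called in 6 of 135, against 54 of 60 members and 37.6% of all genes. At 60 min 88.9% of the ribosomal protein mRNAs and 83.3% of the members were at or below 25% of the start. The difference between the lists was not tested.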

How the data were processed

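RNA of 1 culture was sequenced at 10 times, with 1 library each, after ERCC spike-in RNA had been added. The design text of the labels speaks of a biological duplicate, which is not among these samples. Libraries were stranded (TruSeq, total RNA or mRNA kit, and which kit made each library is not given in the sources used here). If polyadenylated RNA was selected, loss of the poly(A) tail and decay of the mRNA cannot be told apart. The deposited FPKM values (fragments per kilobase of transcript, scaled to library depth) were made by the authors with Bowtie 0.12.7 and Cufflinks 1.3.0 on sacCer2, per the labels. The table names genes only, so positions here are from RefSeq R64. FPKM share a total, so they were divided by the spike-in sum of each library relative to 0 min. Depth was estimated from the steps of 250 low values per library. The labels name yJC1257 as the strain and yJC244 in the growth text.

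Slopes were fitted with limma 3.58.1 in R 4.3.3 (pseudocount 1, mean FPKM at least 1, two-sided, break at 15 min, Benjamini-Hochberg over 6045 genes). As times have no replicates, the error is the scatter around the line, and p-values rest on 1 culture. Half-lives were fitted by least squares in Python 3.11.15 with scipy 1.17.1, with filters after the study's methods. In simulated data with 200 changed genes among 6045, limma recovered 87% of early slopes, and 86.3% of 2000 simulated half-lives came within 25%. The changed genes shared 1 early slope, steeper than the median of the members and of all genes, and were then flat. The simulated half-lives followed the single exponential that was fitted. Their noise was in proportion to the level, so the counting error of late values with few fragments was not simulated. Noise was independent between libraries and genes, so neither share covers the choice of decay model or a shift of a whole library. Named mRNAs were the 2 with the highest FPKM at 0 min in each of 6 roles, the 3 shortest and 3 longest half-lives, and every member not called falling over 0 to 60 min or without a half-life. Others are given by count or half-life. The members, role groups and comparison lists were chosen with earlier results of these data known. Alternatives were other scalings, pseudocounts, filters, breaks, decay models and leaving out each library (for half-lives, each but 0 min).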

Additional observations from a re-analysis of the deposited data

How the results depend on the processing

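No paired analysis was possible because there is 1 library for each time and no replicate number is shared. Of 103 alternative values of the counts and medians, 93 stayed close to the reported one (a count within 1.5 times, a median within 10%). Some of the 93 could not move. All 60 members passed the residual and half-life limits and were at 17.4 FPKM or more at 0 min. Dropping either limit, or asking for at least 10 FPKM at 0 min, therefore left the same members. The call of a less steep slope after 15 min, reported for 54 of 60 members, was made for 31 with the break at 10 min (35.6% of all genes) and for 32 to 54 when 1 library was left out (12.1% to 38.0% of all genes), with 32 without 0 min and 33 without 60 min. The falls were called in 50 to 58 members over 0 to 60 min, lowest with the same total FPKM in each library, while 24.7% to 60.8% of all genes were called, and in 55 to 59 over the first phase (31.8% to 64.6% of all genes), where 55 was out of the 56 members with a mean of at least 10 FPKM. The median half-life of 9.26 min was 12.7 min with the same total FPKM in each library (all genes 22.7 min), 11.4 min with FPKM as deposited (20.4 min), 21.3 min when a line was fitted to the logarithm of the level (34.4 min) and 7.10 min with a plateau (4.59 min), where the order turned. It was 9.004 to 9.52 min when 1 library other than 0 min, which sets the start of the curve, was left out. The median level at 60 min, 14.0%, was 26.5% with the same total FPKM and 19.9% as deposited, and the median of all genes moved with it. For the named mRNAs all 162 half-lives with 1 such library left out stayed within 1 SE. All 18 moved by more with the line on the logarithm and with the plateau, and 5 of 18 with a free starting level. The causes were not tested. The late slope and the comparison over genes that passed under both models were added after the data were seen. Depth limits the late values of the lowest mRNAs, with as few as 3.00 estimated fragments (*UTP23* at 30 min).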
